A study of Rattus norvegicus with 6 samples.

Results

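Apolipoproteins and lipoprotein lipase were followed in the hippocampus of 2 rat lines. The members are the 9 genes Apoe, Apod, Clu, Lpl, Apoa1, Apoa2, Apoa4, Apob and Apoc1, taken as every array probe set whose platform annotation names 1 of these genes and no other. This gave 17 probe sets of the 7006 that name a single gene, and 9 genes of 4736. The genes were chosen by name with earlier intensities and line differences of these same arrays known, that of Apoa2 among them. The line differences given here therefore describe the 6 pools and support nothing further.

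The Syracuse High Avoidance (SHA) and Syracuse Low Avoidance (SLA) lines differ in how readily the animals learn two-way active avoidance, a task in which crossing a box at a signal prevents a shock. Each line was represented by 3 pools, each of whole hippocampus from 3 rats, with 1 array per pool and n = 3 per line. Every pool came from animals killed 2 weeks after avoidance testing, so an untested state was not analysed here, and the labels used here give no age or sex. Pooling leaves the spread between individual rats unseen. In whole tissue, fewer cells of a type and less RNA per cell cannot be told apart.

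Apolipoproteins are the protein coat of lipoprotein particles, which carry cholesterol and other lipids between cells. The blood-brain barrier keeps most plasma lipoproteins out of the brain, so brain tissue runs its own lipid transport on particles rich in Apoe, secreted mainly by astrocytes. Clu (clusterin, or apolipoprotein J) and Apod are further lipid carriers made by brain cells, and Lpl is the lipase that frees fatty acids from triglyceride-rich particles. Apoa1, Apoa2 and Apoa4, proteins of high density lipoprotein, and Apob, the backbone of low density lipoprotein, are products of liver and intestine. Apoc1, a small exchangeable apolipoprotein, is made mostly by liver but also by glia. For what follows, Apoe, Apod, Clu and Lpl are called brain-made and the other 5 genes liver-type.

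Promoter sequence of 4 of the 9 genes was at hand, and the 2 genes with a single listed start site are shown here, 1 bright brain-made member and 1 dim liver-type member. Each sequence runs from 250 bases before to 50 bases after the RefSeq start site of assembly GRCr8, on the plus strand, at chr11:82935970-82936269 for Apod and chr8:55435529-55435828 for Apoa4. Capitals mark matches, on either strand and without overlap, to the TATAAA motif of the TATA box, to the GGGCGG motif of the GC box, or to the CCAAT motif.
Apod: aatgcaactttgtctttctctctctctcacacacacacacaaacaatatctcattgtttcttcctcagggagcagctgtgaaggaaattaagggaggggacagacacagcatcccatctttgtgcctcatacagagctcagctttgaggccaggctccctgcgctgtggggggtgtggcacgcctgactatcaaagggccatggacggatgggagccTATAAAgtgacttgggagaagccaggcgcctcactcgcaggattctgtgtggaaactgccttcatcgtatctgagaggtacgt
Apoa4: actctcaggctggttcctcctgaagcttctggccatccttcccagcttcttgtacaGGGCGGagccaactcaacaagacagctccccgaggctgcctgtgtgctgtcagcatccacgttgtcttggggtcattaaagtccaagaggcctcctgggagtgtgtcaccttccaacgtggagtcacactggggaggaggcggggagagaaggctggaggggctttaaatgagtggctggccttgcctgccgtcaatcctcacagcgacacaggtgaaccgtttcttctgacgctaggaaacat
The Apod promoter holds 1 TATAAA, starting 33 bases before the start site. The Apoa4 promoter holds 1 GGGCGG, starting 194 bases before it. Of 33469 rat promoters of this length, 14.2% hold TATAAA, while 33.1% hold the GGGCGG motif and 37.5% hold the CCAAT motif, and a match only describes these letters.

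Apoe, Clu and Apod gave the brightest signals of the members, given as intensities on the authors' linear scale, while the brain-made Lpl read below the liver-type Apoc1 by mean. Apoe was among the 29 brightest of 8740 probe sets on every array with either of its probe sets. Its probe set X04979_at read 32604.8, 10923.3 and 17722.4 in SHA pools 1, 2 and 3 and 40524.4, 9465.3 and 19876.8 in SLA pools 1, 2 and 3. The second Apoe probe set, S76779_s_at, read 19636.5, 10888.8 and 10441.5 in SHA and 24906.8, 9350.4 and 11799.9 in SLA. For both probe sets the pools numbered 1 were the highest in each line, and the lines overlapped fully.

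Clu, an extracellular chaperone that also binds lipids, ranked between 31 and 54 on the 6 arrays. Its probe set M64733mRNA_s_at read 9215.9, 7010.2 and 6648.5 in the SHA pools and 12772.6, 6301.1 and 8170.3 in the SLA pools, again with overlap. Apod, a lipocalin, read 1435.1, 1119.7 and 883.4 in SHA and 1599.7, 1353.1 and 1417.1 in SLA on X55572_at. SHA pool 1 lay above SLA pools 2 and 3 there, while the other SHA pools were lower than every SLA pool.

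Lpl, which acts at the cell surface and is expressed by hippocampal neurons, gave moderate signals on 3 probe sets. L03294_at read 235.5, 330.8 and 425.1 in SHA and 156.0, 253.0 and 247.6 in SLA, with SHA pool 1 alone inside the SLA range. L03294_g_at read 257.0, 212.4 and 280.5 against 290.0, 194.1 and 179.3. The third, rc_AI237731_s_at, read 140.5, 236.6 and 196.4 against 63.6, 223.5 and 143.0. The lines overlapped on all 3 probe sets.

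The liver-type members were dim, with Apoc1 as the exception. Apoc1 read 614.1, 602.9 and 322.2 in SHA and 545.7, 699.7 and 664.2 in SLA on X15512_at, between percentiles 78.9 and 88.9 of its arrays. In assembly GRCr8 it is the gene next to Apoe. Of the 10 liver-type probe sets 5 had at least 1 pool at the floor, an intensity of 8.9 and the 10th percentile of all values, below which readings were treated as background.

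For Apoa2, a protein of high density lipoprotein, the SHA pools all lay below the SLA pools. Its only probe set, X03468_at, read 15.2, 8.8 and 18.0 in SHA and 124.3, 43.3 and 87.1 in SLA, and SHA pool 2 was at the floor. The means were 14 ± 4.72 in SHA and 84.9 ± 40.5 in SLA (SD, n = 3). Its readings lay between percentiles 13.8 and 57.6 of their arrays, the SHA pools at the low end.

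Apoa1, the main protein of high density lipoprotein, read 67.8, 43.6 and 141.2 in SHA and 156.0, 90.3 and 72.9 in SLA on J02597cds_s_at. Its other probe set, M00001_i_at, had 3 of 6 pools at the floor and never exceeded 21.1. Apoa4 read 23.2, 10.9 and 45.5 in SHA and 69.5, 36.9 and 23.7 in SLA on M00002_at. In both genes SHA pools 1 and 2 were lower than the SLA pools of the same number and SHA pool 3 was higher.

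Apob was read by 5 probe sets that disagreed with one another. The brightest by mean, rc_AA997806_at, read 97.2, 58.5 and 89.7 in SHA and 81.4, 87.2 and 142.8 in SLA, and M14952mRNA_at read 18.3, 36.7 and 38.3 against 29.4, 33.8 and 52.8. M27440_at read 155.5, 8.2 and 139.1 against 113.6, 7.9 and 53.9, so the pools numbered 2 were at the floor in both lines while the other 4 were well above it. The last pair, M21842_at and U53873cds_at, never exceeded 20.0. Across the 6 pools, correlations between Apob probe sets ran from -0.34 to 0.79, a description over pools that share their arrays.

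By signal, then, Apoe, Clu and Apod lay above every liver-type probe set, whereas Lpl, at 63.6 to 425.1, lay mostly below Apoc1 and overlapped the upper Apoa1, Apoa2 and Apob readings. None of the 42 brain-made values was at the floor, and 6 of the 7 brain-made probe sets were above their array's median in every pool. Of the 60 liver-type values 14 were at the floor, or 23.3%, where the floor takes 10% of the values of all 8740 probe sets by construction. Only 1 of the 10 liver-type probe sets, that of Apoc1, was above the median in every pool, and 5 were below it in every pool. Brightness reflects how well probes bind as well as transcript amount, so this order is one of probe sets and not of transcripts.

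**Figure D1:**
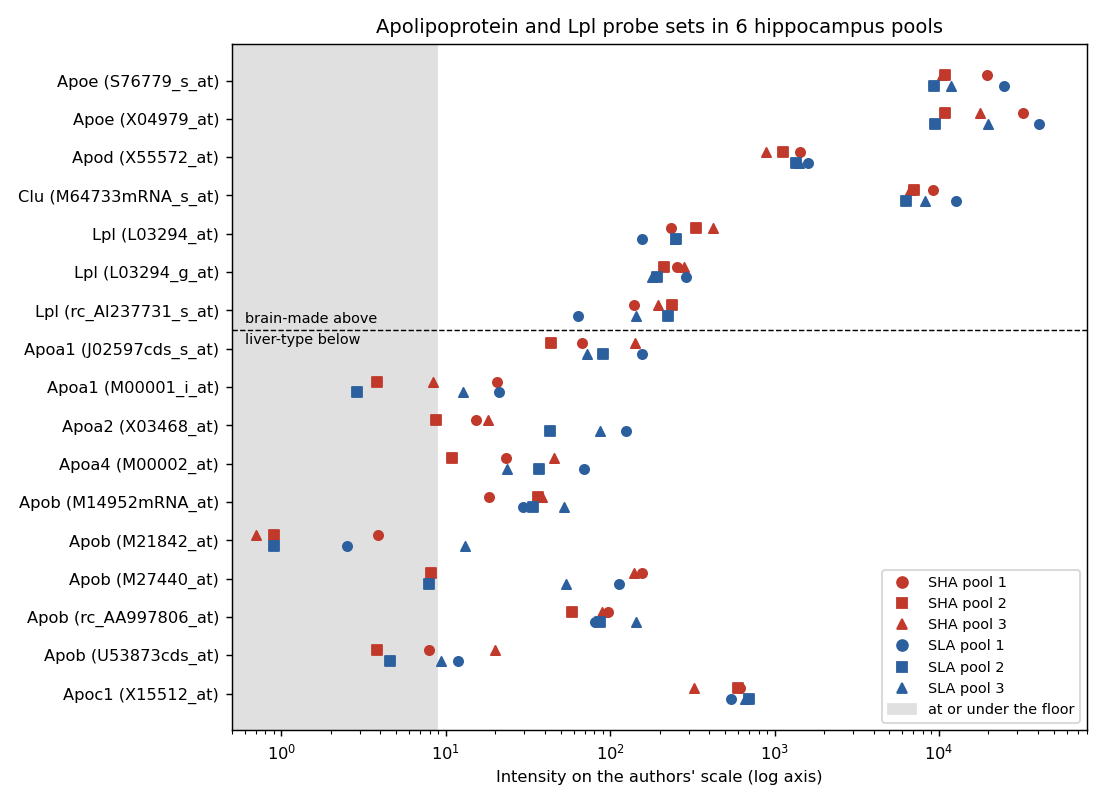
Intensity (log axis, authors' scale) of the 17 member probe sets in 3 SHA and 3 SLA pools, 1 point per pool, with values at or under the floor of 8.9 in the grey band. The Apoe points lie between 9350.4 and 40524.4, and for Apoa2 the SHA points (8.8 to 18.0) lie wholly left of the SLA points (43.3 to 124.3).

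Line differences were taken as log2 SHA minus SLA after values under the floor were raised to it, ± standard error from a limma fit over all probe sets. Apoa2 had the largest member difference, at -2.53 ± 0.68, or 5.77-fold lower in SHA by geometric means. That fold rests on SHA readings of 15.2, 8.8 and 18.0, near the floor of 8.9, to which the 8.8 was raised. The difference was -3.03, -2.28 and -2.27 within the pools numbered 1, 2 and 3. Of the 6555 probe sets tested, 3 including that of Apoa2 had a difference this low. The Apoa2 difference was -1.59 when the 25th percentile served as floor.

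No member passed at an adjusted p under 0.05 in limma, where 0 of 6555 probe sets passed (0.00%), and the adjusted p was 1.00 for the 14 member probe sets tested. At an unadjusted p under 0.05 there was 1 member probe set, that of Apoa2, of 14 tested, against 1.50% of all probe sets tested (1.13% lower and 0.366% higher in SHA). Apoa2 was also the 1 tested member whose pools did not overlap between lines, against 5.66% of all probe sets tested (3.65% with SHA lower and 2.01% with SHA higher). Since the members were chosen with these differences known, nothing is read from these counts. The other 3 probe sets, M00001_i_at of Apoa1 and M21842_at and U53873cds_at of Apob, were among the dimmest 25% and were not tested. Apoa2 itself passed that filter through its SLA pools.

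Among the brain-made members, Lpl was the gene with higher readings in SHA. Its probe sets differed by 0.59 ± 0.33 (L03294_at), 0.20 ± 0.31 (L03294_g_at) and 0.56 ± 0.48 (rc_AI237731_s_at), and L03294_at was higher in SHA within each number, by 0.59, 0.39 and 0.78. Apod differed by -0.37 ± 0.25 and was lower in SHA within each number, by -0.16, -0.27 and -0.68. Clu differed by -0.20 ± 0.34, and Apoe by -0.09 ± 0.59 on X04979_at and -0.10 ± 0.45 on S76779_s_at. For Apoe and Clu the pools numbered 2 went the other way from those numbered 1 and 3, and each of these differences was smaller than its error.

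The pool number was then added as a replicate block, which removes what same-numbered pools share. The errors of the Apoe differences shrank to 0.16 on both probe sets. The differences themselves, -0.09 and -0.10, cannot change with the block in this balanced design. In that fit 3 member probe sets had an unadjusted p under 0.05, those of Apoa2, Apod and L03294_at of Lpl, against 5.26% of all probe sets tested (2.99% lower and 2.27% higher in SHA). None passed after adjustment in limma, where adjusted p values ran from 0.66 for Apoa2 to 0.929 for Apoe.

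Among the other liver-type members, Apoa4 differed by -0.80 ± 0.77 and Apoa1 by -0.43 ± 0.55 on J02597cds_s_at. Taken number by number, Apoa4 gave -1.58, -1.76 and 0.94 and Apoa1 gave -1.20, -1.05 and 0.95, so the pools numbered 3 stood apart in direction for both. Apoc1 differed by -0.36 ± 0.30. The Apob probe sets tested differed by -0.34 ± 0.64, 0.61 ± 1.24 and -0.33 ± 0.44, in no common direction. In all, 8 of 10 liver-type probe sets read lower in SHA, and the median over the 10 was -0.34. Of the 3 not tested, M00001_i_at (-0.18) and M21842_at (-0.19) were lower and U53873cds_at (0.22) was higher. For M21842_at only SLA pool 3 was above the floor. Of the brain-made, 4 of 7 read lower, with a median of -0.09. Over all 8740 probe sets, tested or not, 4479 read lower and 4146 higher, with a median of -0.01. Among those tested 51.9% read lower, with a median of -0.01.

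**Figure D2:**
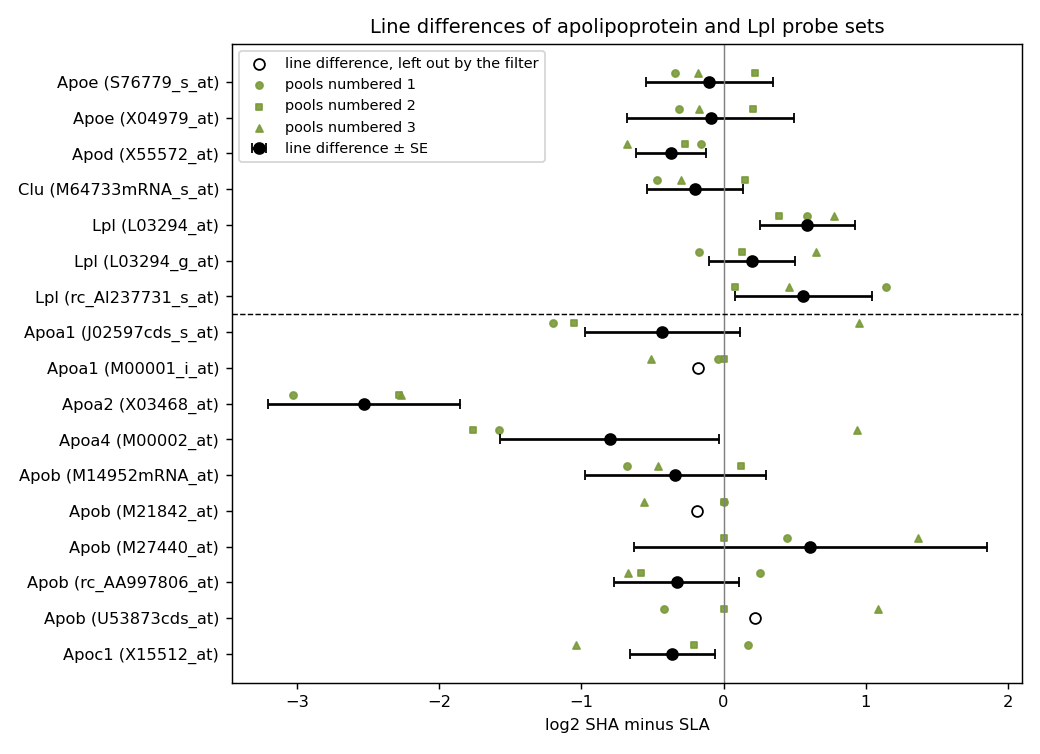
Log2 SHA minus SLA of the 17 member probe sets, as black points with the standard error (n = 3 pools per line), open points for the 3 left out by the filter, and green markers for the difference within each pool number. Apoa2 lies at -2.53 with all 3 numbers below -2, while the markers of Apoa1 (J02597cds_s_at) and Apoa4 fall on both sides of 0.

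Markers of other cell types and tissues were set beside the Apoa2 difference. Of 20 genes of hepatocytes and plasma proteins 19 were measured, 9 lower and 10 higher in SHA on their brightest probe set, and their summed intensity was 1423 to 1744 in SHA and 1402 to 2093 in SLA, with overlap. The brightest genes of the list, Itih3, Hp and Cyp2e1, differed by -0.37, 0.06 and 0.11 on the log2 scale. The liver plasma protein Gc, picked after its values were seen and left out of the test by the filter, read higher in SHA, with 50.4, 30.2 and 29.7 in SHA against 14.6, 10.3 and 9.5 in SLA. Single probe sets of others read lower, Alb at -0.68 on rc_AA860062_at and Fga at -0.56 on M35601_at, also picked with their values known. Alb read 0.39 on rc_AA866237_s_at, its brightest by mean, and -0.06 and -0.07 on its untested probe sets. The other Fga probe sets, also untested, read 0.40 and 0.07, so the probe sets of each gene disagreed.

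The summed signal of microglia and macrophage markers was lower in SHA, as was that of Apoa2. Of 14 genes 10 were measured, 7 lower and 3 higher in SHA, with a summed intensity of 2675 to 3569 in SHA and 4122 to 4847 in SLA, without overlap. None passed after adjustment in limma. Of its 12 probe sets tested, 11 read lower in SHA, 3 of them with pools that did not overlap, beside 3.65% of all probe sets tested. These 3, singled out after their values were seen, were X13044_at and X13044_g_at of Cd74, the invariant chain of class II antigen presentation, at -3.90 and -2.67, and X71127_at of the complement gene C1qb at -0.61. Both Cd74 probe sets passed the filter through their SLA pools, and the -3.90 depends on the floor in 2 SHA pools. Csf1r, a receptor of these cells, was left out by the filter and so of the count of 12, and read higher in SHA, at 1.09. No result is read from the counts of this list. Ctss, a lysosomal protease and the largest part of the sum, had pools that overlapped. It read 1932.1, 2394.4 and 1407.6 in SHA and 2056.4, 3106.2 and 3237.5 in SLA. Choroid plexus markers, 5 of 12 measured, summed to 612.8 to 745.6 in SHA and 712.4 to 822.2 in SLA, and those of meninges and fibroblasts, 12 of 12 measured, to 2227 to 2644 and 2443 to 3226. Of the choroid plexus genes 3 were lower and 2 higher in SHA, and of the meningeal genes 10 were lower and 2 higher. No gene of these 4 lists was at the floor in all pools. The part of these cells in the Apoa2 difference was not tested.

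Astrocyte markers, which bear on Apoe and Clu, had 9 of 11 genes measured, 3 lower and 6 higher in SHA, with sums of 25741 to 28745 in SHA and 23599 to 27241 in SLA. Neuronal markers, 8 of 10 measured, had 1 lower and 7 higher, with sums of 5824 to 9806 and 4581 to 9010. None of their values was at the floor in any pool, as for the oligodendrocyte and blood cell markers. That shows signal above the floor and does not measure neuronal content. Endothelial markers had 6 of 8 lower, oligodendrocyte markers 5 of 6 and blood cell markers 3 of 4, with overlapping sums.

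The arrays differed in the spread of their intensities. The 99th percentile was 6464 in SHA pool 1, 5923 in SLA pool 1 and 4125 to 4993 in the other 4, although the 2%-trimmed mean was 250.3 to 250.4 throughout. Values at the floor made up 15.9% and 13.6% of the arrays numbered 2 and 4.95% to 10.2% of the others. Arrays correlated at 0.779 to 0.963, the highest of these well short of identity.

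With values scaled as deposited, Apoe followed the pool number almost wholly. On the log2 scale, the number accounted for 97.6% of the squared deviations of X04979_at over the 6 pools and the line for 0.36%, and 2.85% of all probe sets tested had as large a share for the number. The corresponding shares were 93.9% and 0.92% for S76779_s_at and 76.9% and 8.71% for Clu. Medians over all probe sets tested were 62.4% for the number and 7.61% for the line. Apoa2 had the reverse pattern, with 84.5% for the line and 13.8% for the number, and 32 of the 6555 probe sets tested had as large a line share. Apod, at 42.7% and 41.5%, and L03294_at of Lpl, at 43.3% and 53.5%, were the members nearest to it in line share.

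**Figure D3:**
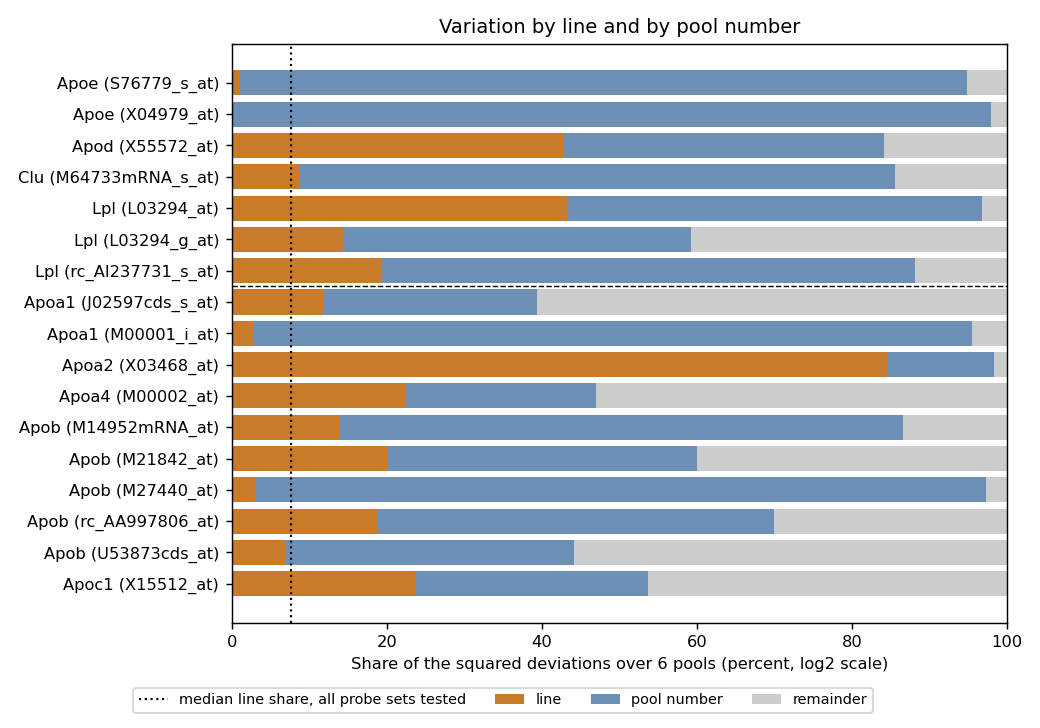
Share of the squared deviations over 6 pools (percent, log2 scale) that belongs to line, pool number and the remainder, 1 bar per member probe set, with the median line share of all probe sets tested (7.61%) dotted. With values scaled as deposited, Apoe X04979_at is nearly all pool number (97.6%) and Apoa2 mostly line (84.5%).

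The spread of Apoe between pools depended on the scaling. As deposited, X04979_at spanned 4.28-fold from lowest to highest pool, and after quantile normalization, which gives each array the same distribution, it spanned 1.35-fold. The highest value on the array was 13913.5 in SHA pool 2 and 10667.3 in SLA pool 2, against 22979.5 to 67760.3 on the other 4, so Apoe read close to the top of the scale in the pools numbered 2. The part of this narrower range in the fold and in the ratio of the Apoe probe sets was not tested. The rank of X04979_at among the 8740 probe sets was 8, 10 and 11 in the SHA pools and 6, 6 and 5 in the SLA pools. After quantile normalization X04979_at read 19583.9, 17734.9 and 16768.3 in SHA and 20731.7, 20731.7 and 22709.6 in SLA. Its SHA pools then lay wholly below the SLA pools, with a difference of -0.25 and a limma adjusted p of 0.999. The pools of S76779_s_at still overlapped. The shares for line and pool number given above belong to the deposited scaling and were not taken after this step. L03294_at of Lpl also separated after that step, higher in SHA, with a difference of 0.63 and an adjusted p of 0.999 in limma. The other Lpl probe sets still overlapped. How many of all probe sets separate after that step was not counted, so nothing is read from these separations. Apoa2 spanned 12.4-fold after quantile normalization and differed by -2.66.

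The Apoe probe sets also parted by pool number. X04979_at exceeded S76779_s_at by 0.73, 0.76, 0.70 and 0.75 on the log2 scale in SHA pools 1 and 3 and SLA pools 1 and 3, but by 0.005 and 0.018 in SHA pool 2 and SLA pool 2. Both probe sets are annotated to Apoe alone, yet their ratio took a high value in 4 pools and a value of about 1 in the other pair. Of 143 same-gene pairs of probe sets with mean intensities of at least 1000, the pools numbered 2 stood apart from the other 4 in 58, or 40.6%, and by as much as in Apoe in 11, or 7.69%. The suffix _s marks probe sets whose probes may match more than 1 transcript.

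**Figure D4:**
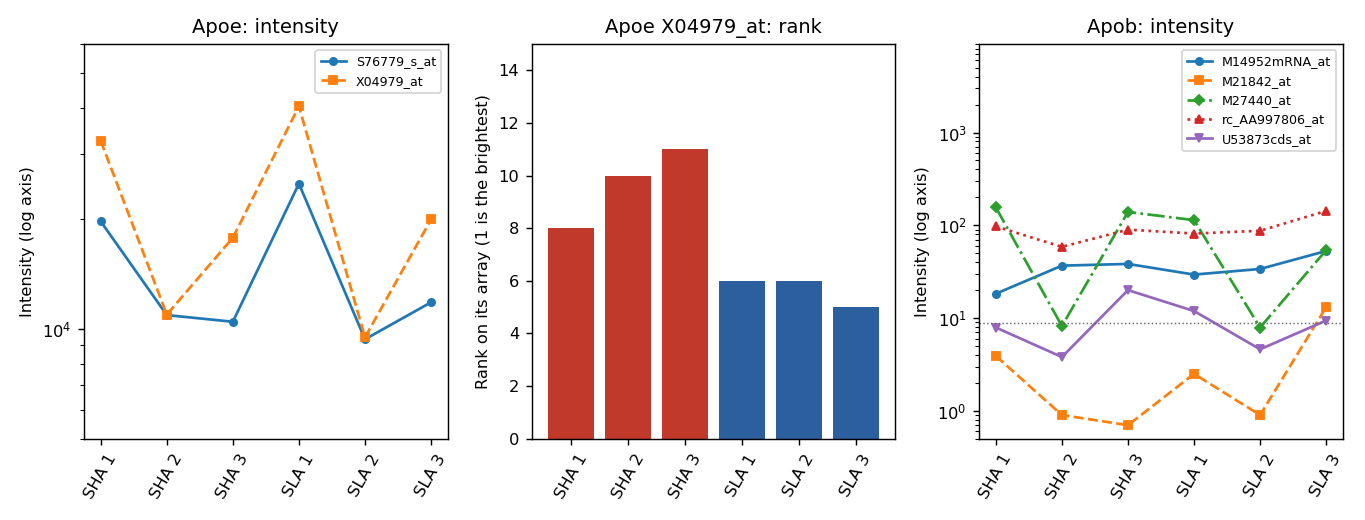
Left, intensity (log axis) of the 2 Apoe probe sets in each pool, centre, rank of Apoe X04979_at among 8740 probe sets on each array (1 is the brightest), and right, intensity (log axis) of the 5 Apob probe sets with the floor of 8.9 dotted. The Apoe probe sets meet in the pools numbered 2, the rank stays between 5 and 11, and Apob M27440_at falls to 8.2 and 7.9 in the pools numbered 2.

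Apoe and Clu varied together across pools. Over the 6 pools, Clu correlated with Apoe at 0.96 on S76779_s_at and 0.90 on X04979_at, and Apod with Clu at 0.69. Apoc1, the neighbour of Apoe in the genome, correlated with Apoe at 0.07 on S76779_s_at and -0.15 on X04979_at. Quantile normalization moved these values, to 0.76 and 0.43 for Clu with Apoe and to 0.56 and 0.76 for Apoc1 with Apoe. The 2 Apoe probe sets correlated with each other at 0.92 as deposited and 0.25 after that step. These values describe 6 pools that share line and pool number in pairs.

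The probe sets most like Apoe X04979_at over the 6 pools, of 5380 compared, were those of Nfasc, Ptov1 and Arpc4, with Pearson correlations of 0.995, 0.994 and 0.993, and 260 probe sets (4.83%) exceeded 0.9. The most like Apoa2, of 5381 compared, were Ino80e, Slc25a10 and Aif1l at 0.992, 0.990 and 0.974, and 39 (0.73%) exceeded 0.9. Aif1l read 36.7, 30.4 and 41.3 in SHA and 95.5, 48.8 and 93.6 in SLA, the closest of the 3 to Apoa2 in the size of its difference. Because the 3 were picked by correlation with Apoa2 over these same pools, their lower readings in SHA follow from that choice.

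Other genes of lipoprotein handling were taken from a list of 64, of which 35 were measured by 60 probe sets and 39 probe sets were tested. Of the 39, 21 read lower and 18 higher in SHA, with a median of -0.10 beside -0.01 over all probe sets tested. Without the replicate block, none had an unadjusted p under 0.05 in limma. With the block, U40001_at of the lipase gene Lipe had an unadjusted p of 0.0111 and an adjusted p of 0.831 in limma. In that fit 5.26% of all probe sets tested had an unadjusted p under 0.05. None of the list passed after adjustment in either fit. The pools did not overlap in 2 of the 39, both higher in SHA, which is near the 5.66% of all probe sets tested and no result about the list. These were Scarb1, the receptor for high density lipoprotein, with 195.2, 165.6 and 193.0 in SHA and 147.0, 134.5 and 148.3 in SLA on D89655_at (0.36 ± 0.30), and Fabp5, a fatty acid binding protein, with 1265.7, 923.8 and 859.5 against 853.1, 852.8 and 788.9 (0.27 ± 0.23). The other Scarb1 probe sets differed by 0.15 and 0.26.

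By role, secreted apolipoproteins outside the members were 3 of 4 genes lower in SHA, and receptors and their partners 3 of 8. Apoc3, an inhibitor of lipoprotein lipase that lies between Apoa1 and Apoa4 in the genome, read 332.7, 235.2 and 142.7 in SHA and 457.0, 188.8 and 233.1 in SLA on J02596cds_at, a difference of -0.28 ± 0.43. Its probe set rc_AI169758_at differed by -0.12 ± 0.40, and J02596cds_g_at, with 2 pools at the floor, was not tested. Apoc4, beside Apoc1, was also not tested and read 16.4 to 22.5 in SHA and 19.2 to 48.6 in SLA. Vldlr, a receptor for Apoe-bearing particles, read 55.7, 47.9 and 61.3 in SHA and 9.7, 89.7 and 95.9 in SLA, with SLA pool 1 far below the rest.

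Enzymes and lipases gave no common direction. Lcat, which esterifies cholesterol on lipoproteins, differed by -0.87 ± 0.59, most of it from the pools numbered 1, at -2.11, against -0.07 and -0.44 in the others. Lipe, hormone-sensitive lipase, differed by -0.89 ± 0.48 on U40001_at and 0.52 ± 0.61 on X51415cds_s_at, so its probe sets disagreed. Nuclear receptors for sterols, which induce Apoe and cholesterol exporters in glia, were 3 lower and 3 higher of 6 genes. The examples Apoc3, Apoc4, Vldlr, Lcat and Lipe were picked with their values in view.

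**Figure D5:**
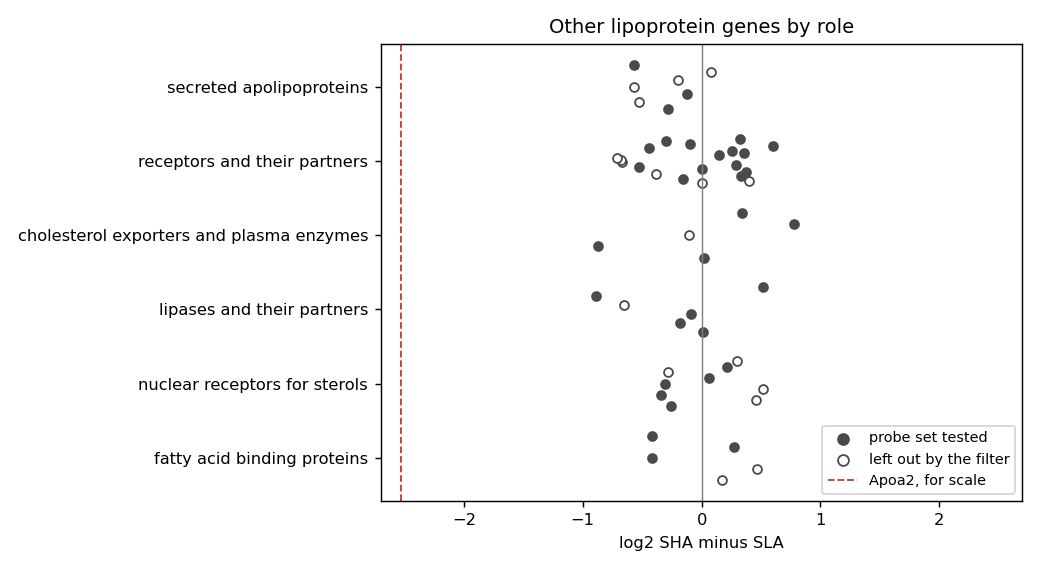
Log2 SHA minus SLA of 52 probe sets of 29 lipoprotein genes outside the members, 1 point per probe set in 6 roles, open where the filter left the probe set out, with the Apoa2 difference of -2.53 as a dashed line for scale. Points of each role lie on both sides of 0, and the lowest of all, Lipe at -0.89, is far from the Apoa2 line.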

How the data were processed

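Total RNA from 6 hippocampus pools was measured on 6 one-colour oligonucleotide arrays with 8799 probe sets. The deposited values are linear intensities, 1 for each probe set on each array. Equal 2%-trimmed means (250.3 to 250.4) show that each array had been scaled before deposit. Software: not given in the sources used here. Precision is limited by the small number of arrays.

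After 59 controls were left out, values under 8.9 (the 10th percentile) were raised to it, log2 was taken, and the dimmest 25% by mean log2 was dropped, leaving 6555 of 8740 probe sets. Symbols came from the platform annotation, updated by gene number through the GRCr8 gene table (6985 of 7006 single-gene probe sets matched). A single-gene name rests on that annotation and was not checked against probe sequence. The line comparison used limma 3.58.1 under R 4.3.3 (intensity trend, two-sided, Benjamini-Hochberg over all 6555), first run on simulated data. The simulated arrays varied independently, without anything shared by pool number, so that run does not show how the fit behaves on these pools. The members, lists and tests were chosen with earlier results of these data known, and the roles were grouped after values were seen.

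Named were all member probe sets, the lipoprotein genes of smallest p whose pools did not overlap (up to 4 per direction), the 3 brightest genes per marker list as far as needed, and the 3 probe sets most like Apoe and Apoa2. Gc, Alb, Fga, Csf1r, Cd74, C1qb, Apoc3, Apoc4, Vldlr, Lcat and Lipe fall outside this rule and were picked with their values known. Same-numbered pools deviated together from their line means (r = 0.442, 0.675 and 0.127), while differently numbered pools gave -0.56 to 0.156, the highest for SHA pool 3 with SLA pool 1. On this evidence from the data alone, equal numbers were treated as pairs. No label says that the rats of different pools were separate animals, so the spread may be partly technical. Alternatives were other normalizations, filters, floors, variance models and array weights, the replicate block and leaving out pools.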

Additional observations from a re-analysis of the deposited data

How the results depend on the processing

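The 17 member probe sets gave 289 differences under 17 other settings, of which 265 kept their sign and 270 moved by less than the spread between pool numbers. These counts include settings that cannot change a difference of line means, namely the filters, the variance models and the replicate block. Values under those settings equal the main ones by construction and are no sign of stability. Differences of 8 probe sets kept their sign under every setting run, with ranges of -2.95 to -1.59 for Apoa2, -1.31 to -0.15 for Apoa4, -0.66 to -0.08 for Apob rc_AA997806_at, -0.63 to -0.06 for Apoc1, -0.55 to -0.20 for Apod, and 0.36 to 0.81, 0.07 to 0.43 and 0.06 to 0.97 for Lpl L03294_at, L03294_g_at and rc_AI237731_s_at. Single pools set some of these: omitting SLA pool 1 left 0.06 for rc_AI237731_s_at, omitting SHA pool 3 left -0.06 for Apoc1, and omitting SHA pool 2 left -0.28 for Apoa4. The smallest sizes of Apoa2 were -1.59, when the 25th percentile served as floor, and -1.68 on the log2(value + 16) scale. With the dimmest 50% left out, Apoa2 was not tested. The Apoe differences changed sign under array weights and on omitting SHA pool 2, SLA pool 1 or both pools numbered 1, and that of S76779_s_at also on omitting SHA pool 3. Clu was 0.07 on omitting SLA pool 1.

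No probe set, member or other, passed under any setting run, in limma. The 98 probe sets with an unadjusted p under 0.05 rose in number to 203 without the filter, 354 under array weights and 345 under the replicate block, and dropped to 63 with the dimmest 50% removed. Omitting single pools gave 57 to 152, namely 62 for SHA pool 1, 151 for SHA pool 2, 152 for SLA pool 2 and 57 for SLA pool 3. The median over brain-made probe sets, -0.09, was 0.12 under array weights and ran from -0.39 to 0.32 on omitting single pools: -0.35 for SHA pool 1, 0.29 for SHA pool 2, 0.06 for SHA pool 3, 0.32 for SLA pool 1 and -0.39 for SLA pool 2. It was 0.02 without both pools numbered 1. The liver-type median, -0.34, stayed between -0.44 and -0.15. The block changed no call after adjustment. Of 102 member values 14 were at the floor, 9 with the floor set at the 5th percentile and 27 at the 25th. Averaging probe sets per gene gave -0.10 for Apoe, 0.45 for Lpl, -0.31 for Apoa1 and -0.006 for Apob, the last from -0.33. The causes were not tested.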
